A study of Homo sapiens with 5 samples.

Results

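H2A-K130ac ChIP-seq peaks of chromosome 3 were described in the human prostate cancer line C4-2B, treated either with abiraterone, which blocks CYP17A1 and thereby the synthesis of androgens, or with Romidepsin, an inhibitor of histone deacetylases 1 and 2. Chromosome 3 was chosen on the numbers of peaks themselves, since its ratio of abiraterone to Romidepsin peaks was the highest of the 22 autosomes. All peaks on it were taken, 5982 of 67807 in the abiraterone list and 4688 of 91399 in the Romidepsin list, and were counted in windows of 5 Mb from the end of the short arm. The ratio in its windows, arms, annotation classes and genes is therefore a description and was not tested. Each treatment had 1 peak list, and whether it pools the duplicates that the study's summary of its methods speaks of is not known. No untreated C4-2B library is part of the comparison. The labels give neither the dose nor the time for C4-2B, and the protocol copied to every sample describes VCaP, another prostate line, with 0.5 µM Romidepsin. The labels call C4-2B a breast cancer line; peak lists hold no expression of marker genes with which to check the cells. The 3 VCaP libraries were not analysed here.

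H2A-K130ac is the acetylated form of lysine 130 in the tail at the C-terminal end of histone H2A. Lysine acetylation removes a positive charge and is written by acetyltransferases, such as KAT2A for this site, and erased by deacetylases, so the balance of both kinds of enzyme sets its level. Chromosome 3 is known in cancer biology for the tumour suppressor genes of its short arm, such as VHL and BAP1, and for MECOM, PIK3CA, SOX2 and TP63 on its long arm, which code for growth signalling and for transcription factors.

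A few promoters show what the peaks look like in sequence. Among the peaks called within 1 kb of a start site on chromosome 3, 26 in the abiraterone list and 14 in the Romidepsin list had their summit from 250 bases before to 50 bases after that site. For 10 and 1 of these the start site was also the start of the gene in RefSeq, a match that held for 569 of 1398 start sites. On the long arm lay 9 of the 10 abiraterone summits, and 109 of all 179 abiraterone peaks within 1 kb. The place of so few is not read as a result. The 3 with the highest fold in the distal long arm, the one with the highest fold elsewhere and the single Romidepsin one are printed below, 300 bases each from RefSeq (GRCh38.p14), 5′ to 3′ along the gene. Capitals mark the GC box GGGCGG, the CCAAT box CCAAT, the androgen receptor half-site AGAACA and the E-box CACGTG on either strand, none of which overlapped another here.
RTP1 promoter (abiraterone peak): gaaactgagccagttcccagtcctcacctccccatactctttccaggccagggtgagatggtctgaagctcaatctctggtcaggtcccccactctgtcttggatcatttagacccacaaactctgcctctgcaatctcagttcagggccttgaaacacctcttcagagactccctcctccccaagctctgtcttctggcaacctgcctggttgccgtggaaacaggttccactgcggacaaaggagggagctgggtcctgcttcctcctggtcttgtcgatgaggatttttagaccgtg
DNAJC19 promoter (abiraterone peak): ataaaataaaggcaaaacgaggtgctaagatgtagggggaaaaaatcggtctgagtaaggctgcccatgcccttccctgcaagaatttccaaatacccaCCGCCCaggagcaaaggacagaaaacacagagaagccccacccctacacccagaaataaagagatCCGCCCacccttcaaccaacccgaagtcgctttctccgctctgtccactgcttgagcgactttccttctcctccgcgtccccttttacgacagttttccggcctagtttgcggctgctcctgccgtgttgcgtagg
LXN promoter (abiraterone peak): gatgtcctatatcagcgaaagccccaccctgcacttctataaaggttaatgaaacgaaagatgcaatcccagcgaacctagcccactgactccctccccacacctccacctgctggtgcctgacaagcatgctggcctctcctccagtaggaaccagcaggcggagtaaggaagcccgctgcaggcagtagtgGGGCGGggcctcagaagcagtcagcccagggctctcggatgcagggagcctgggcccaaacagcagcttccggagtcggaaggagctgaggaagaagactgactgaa
ZBTB11 promoter (abiraterone peak): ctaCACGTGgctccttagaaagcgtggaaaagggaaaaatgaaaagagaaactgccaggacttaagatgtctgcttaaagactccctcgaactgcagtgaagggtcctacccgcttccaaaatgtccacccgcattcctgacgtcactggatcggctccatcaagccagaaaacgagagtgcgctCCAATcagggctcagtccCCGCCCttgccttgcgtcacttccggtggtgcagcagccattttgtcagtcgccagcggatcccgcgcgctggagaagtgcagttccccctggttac
AMT promoter (Romidepsin peak): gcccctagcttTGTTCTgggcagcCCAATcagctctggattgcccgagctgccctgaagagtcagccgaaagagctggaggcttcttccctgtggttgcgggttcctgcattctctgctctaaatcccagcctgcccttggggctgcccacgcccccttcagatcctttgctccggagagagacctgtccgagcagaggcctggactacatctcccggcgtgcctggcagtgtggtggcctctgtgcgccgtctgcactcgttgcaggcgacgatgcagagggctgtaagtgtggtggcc

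The abiraterone peak of RTP1, a chaperone of odorant receptors, spanned chr3:186915152-186915467 (hg19) with a fold over the control of 5.37, and its summit lay 39 bases before the start site. DNAJC19, a part of the mitochondrial protein import motor, had its peak at chr3:180707370-180707762 with a fold of 3.72, and LXN, which encodes the carboxypeptidase inhibitor latexin, at chr3:158390624-158390750 with 2.76. The abiraterone peak of the zinc finger gene ZBTB11 spanned chr3:101395903-101396202 with a fold of 3.78. The Romidepsin peak of AMT, a subunit of the glycine cleavage system, lay on the short arm at chr3:49459774-49460386 with a fold of 3.44. These promoters differed widely in composition, from 4 CG dinucleotides in RTP1 to 17 in ZBTB11. A GC box was present in 44.6% of all 27305 promoters of this length, a CCAAT box in 35.7%, an androgen receptor half-site in 14.9% and an E-box in 7.43%. The RefSeq promoters of chromosome 3 genes with a peak within 1 kb were picked by gene, without the match of start sites. That match held for 569 of 1398 start sites, so a peak may lie at another start site of the gene. Over the 129 such promoters of abiraterone genes the same motifs were found in 52.7%, 29.5%, 11.6% and 9.30%. Over the 126 of Romidepsin genes they were found in 58.7%, 34.9%, 11.9% and 7.14%. The median GC content was 62.7% in both sets and 56.7% over the 1652 promoters of the chromosome. The lists shared some of these genes: 27 had a peak within 1 kb in both, which is 18.1% of the 149 abiraterone genes and 18.5% of the 146 Romidepsin genes. Among the genes with a sequence, 25 were shared, 19.4% of the 129 with an abiraterone peak and 19.8% of the 126 with a Romidepsin peak. Of all 1652, 7.63% had a Romidepsin peak and 7.81% an abiraterone peak. A shared gene need not have both peaks at the same start site.

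To place the excess, the counts were first compared between autosomes. Chromosome 3 held 1.28 abiraterone peaks for each Romidepsin peak (exact 95% interval 1.23 to 1.33, counting error only), and the other 21 autosomes together held 0.726 (0.718 to 0.734). The others ranged from 0.458 on chromosome 22 to 0.989 on chromosome 7, so that chromosome 3 was the single autosome with more abiraterone than Romidepsin peaks. Both lists took part in this. The abiraterone list held 30.8 peaks per Mb of chromosome 3 and 24.2 per Mb of the other autosomes, and the Romidepsin list held 24.1 and 33.4 per Mb. Chromosome 1 came closest in abiraterone density, with 30.6 peaks per Mb, and chromosome 13 was the one autosome with a lower Romidepsin density, 23.5 per Mb.

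**Figure D1:**
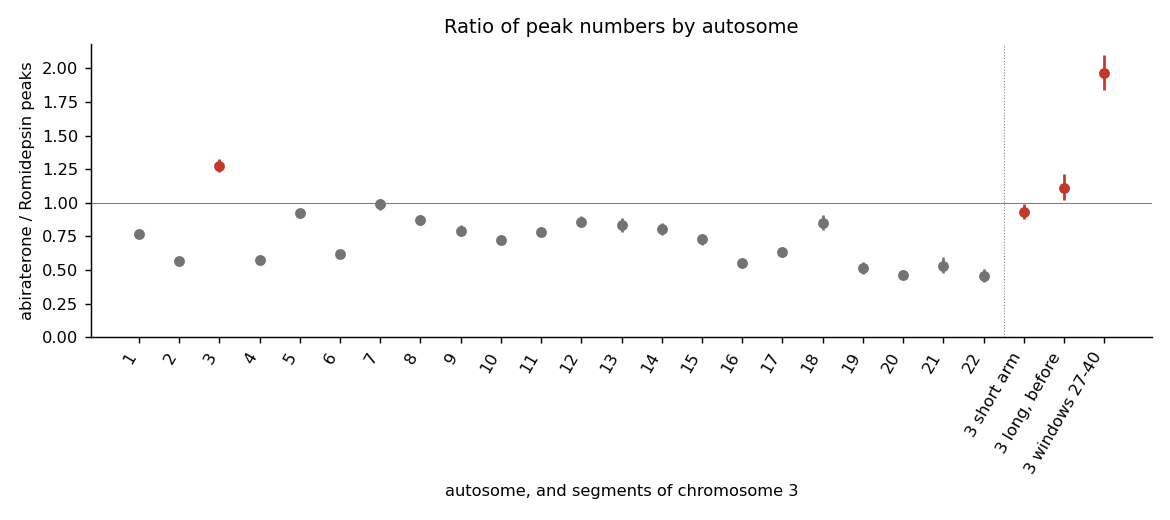
Ratio of abiraterone to Romidepsin peak numbers on each autosome (grey; chromosome 3 in red) and on 3 segments of chromosome 3 (right of the dotted line). Points are ratios of counts, bars are exact 95% intervals for counting error, and the line is drawn at 1. Chromosome 3 stands at 1.28, the others lie between 0.458 and 0.989, and windows 27 to 40 of chromosome 3 stand at 1.96.

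The excess did not cover the whole chromosome evenly. The arms were separated at the longest stretch without a peak in either list, 3.36 Mb around the centromere. The short arm held 2198 abiraterone and 2356 Romidepsin peaks, a ratio of 0.933 (0.880 to 0.989). The long arm held 3784 and 2332, a ratio of 1.62 (1.54 to 1.71). On the short arm the abiraterone density was 24.4 peaks per Mb, close to the 24.2 of the other autosomes, and its ratio stood above theirs through a Romidepsin density that was 21.7% lower than theirs. On the long arm both densities differed from theirs, with 36.3 abiraterone and 22.4 Romidepsin peaks per Mb.

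Within the long arm the excess lay mainly in its distal part. The longest row of neighbouring windows with more abiraterone than Romidepsin peaks comprised 14 windows, numbers 27 to 40, from 130 Mb to the last peak at 197.8 Mb. This distal segment held 2739 abiraterone and 1394 Romidepsin peaks, a ratio of 1.96 (1.84 to 2.10). It made up 34.9% of the chromosome's length and held 45.8% of its abiraterone and 29.7% of its Romidepsin peaks. Its net excess of 1345 peaks exceeded that of the chromosome as a whole, 1294, because the short arm had 158 fewer abiraterone than Romidepsin peaks and the rest of the long arm 107 more. The rest of the long arm held 1045 and 938 peaks, a ratio of 1.11 (1.02 to 1.22). The density of abiraterone peaks in the distal segment was 40.4 per Mb, 66.6% higher than on the other autosomes, and that of Romidepsin peaks was 20.6 per Mb, 38.4% lower. The segment was delimited by the ratio, so a high ratio in it follows from how it was drawn.

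The windows show how the lists moved against each other. In the distal segment the abiraterone count ran from 95 to 267 per window with a median of 194.5, and the Romidepsin count from 56 to 141 with a median of 98.5. The median window of the other autosomes held 117 abiraterone and 160.5 Romidepsin peaks. The highest ratios of the chromosome were 3.16 (177 and 56 peaks) from 160 to 165 Mb, a window with 14 genes, and 3.06 (202 and 66) from 150 to 155 Mb. Genes of a window were counted, here and below, where they were the nearest gene of a peak in either list. At the border, the window from 125 to 130 Mb had 159 abiraterone and 210 Romidepsin peaks and the next one 187 and 138. More abiraterone than Romidepsin peaks were found in 26 of the 40 windows of chromosome 3, and in 23.3% of the 554 windows of all autosomes. The other autosomes had 103 such windows of 514, and their longest row spanned 35 Mb, on chromosome 12. A ratio above 2 occurred in 7 windows of chromosome 3, all of them in the distal segment, and in 5 windows of the other autosomes. Of the 20 windows with the highest ratio in the genome 11 lay on chromosome 3, behind 2 windows of chromosome 13 with 4.30 and 3.57.

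Smaller stretches of excess lay outside the distal segment. Around the centromere, from 75 to 95 Mb, the ratio was 1.89, 1.59, 1.59 and 2.00 in 4 successive windows, the last of which holds the stretch without peaks. Here the Romidepsin counts were low, from 18 to 71, while the abiraterone counts, from 36 to 113, were not above the median window elsewhere. The window from 115 to 120 Mb had 188 and 98 peaks, a ratio of 1.92, with a high abiraterone count. The 4 windows with a ratio below that of the other autosomes all lay on the short arm. The lowest were 0.51 from 45 to 50 Mb (96 and 188 peaks, 87 genes), 0.52 from 10 to 15 Mb (120 and 229 peaks, 46 genes) and 0.58 from 50 to 55 Mb (94 and 163 peaks, 70 genes). In 36 of the 40 windows the ratio was above 0.726, and in 31 the whole interval was.

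**Figure D2:**
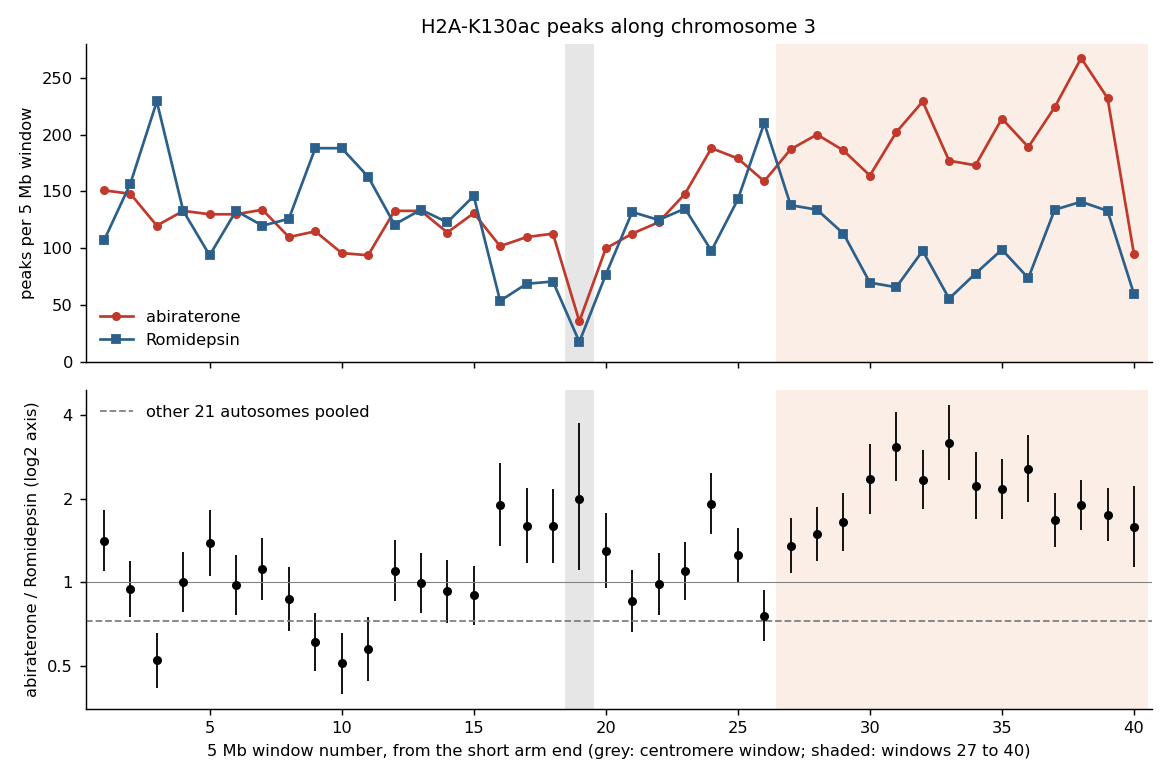
Peaks in each 5 Mb window of chromosome 3, numbered from the end of the short arm: counts in the abiraterone (red) and Romidepsin (blue) lists above, and their ratio on a log2 axis with exact 95% intervals for counting error below. The dashed line is the ratio of the other 21 autosomes, 0.726. All 14 windows from 27 to 40 stand above 1, and the windows from 40 to 55 Mb (numbers 9 to 11) stand below the dashed line.

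Gene number went with the ratio across windows, as a description in which all windows come from the same 2 peak lists. The genes counted are those nearest to a peak of either list, so their number comes from the same peaks as the ratio. It is not an independent property of a window. Over the 40 windows Pearson's r between the ratio and this number of genes was -0.43 and Spearman's rho was -0.38. Over the 514 windows of the other autosomes they were -0.32 and -0.40. On the short arm r was -0.78 over 18 windows. Windows were therefore set beside others with a like number of genes. With up to 20 genes the ratio was 2.53 (2.17 to 2.96) in the distal segment, 1.25 on the rest of chromosome 3 and 0.867 on the other autosomes. With 21 to 33 genes it was 1.90, 1.03 and 0.752, and with more genes 1.75, 0.739 and 0.614. The windows of the distal segment were taken for their ratio, so nothing is read from its place above the others. The counts of the 2 lists themselves were nearly unrelated along chromosome 3, with r of 0.07, against 0.50 over the windows of the other autosomes.

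The peaks differed between segments in the p-value the peak caller gave them. Many peaks of a list carry exactly the same −log10 p and fold, and the 4 commonest values alone took 42.5% of abiraterone and 62.2% of Romidepsin peaks on the other autosomes. On chromosome 3 they took 30.3% and 44.7%, less than on any other autosome (at least 34.2% and 50.9%, both on chromosome 7). In the distal segment they took 24.7% and 25.8%. Romidepsin peaks at these values fell from 20.8 per Mb on the other autosomes to 5.29 per Mb in the distal segment, whereas all other Romidepsin peaks had 12.6 and 15.3 per Mb. The deficit of Romidepsin peaks in the segment thus lay in the peaks at the commonest values. In the abiraterone list the peaks at these values had 10.3 and 9.97 per Mb, and all others 13.9 and 30.4 per Mb, which carries the high abiraterone density. Single values moved in opposite directions: abiraterone peaks at −log10 p of 3.62 had 2.85 per Mb on the other autosomes and 5.80 in the distal segment, and those at 4.62 had 3.34 and 0.723. The part of these shifts in the ratio was not tested.

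**Figure D3:**
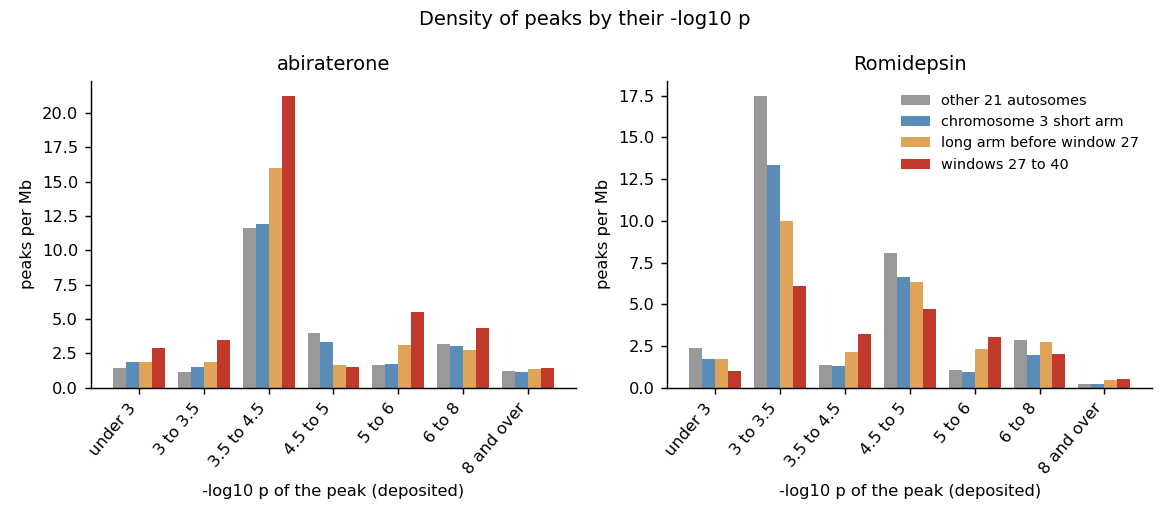
Peaks per Mb by their deposited −log10 p in the abiraterone (left) and Romidepsin (right) list, for the other 21 autosomes (grey), the short arm (blue), the long arm before window 27 (orange) and windows 27 to 40 of chromosome 3 (red). In the Romidepsin list the density from 3 to 3.5 falls from 17.5 to 6.08 per Mb, and in the abiraterone list the density from 3.5 to 4.5 rises from 11.6 to 21.2 per Mb.

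The excess relative to the other autosomes depended on how strong the peaks were. Over all peaks the ratio of the distal segment was 2.71 times that of the other autosomes. Among peaks whose −log10 p was 3.5 or more it was 1.57 times (1.46 to 1.70), and at 6 it was 1.62 times (1.35 to 1.95). Among the strongest peaks, with −log10 p of at least 8, it was 0.47 times (0.32 to 0.72), with 97 abiraterone and 35 Romidepsin peaks. Counting peaks from a −log10 q of 2 upward, a false discovery rate of 0.01, chromosome 3 held 1541 abiraterone and 207 Romidepsin peaks, a ratio of 7.44 against 6.60 on the other autosomes. Chromosome 3 no longer came first at this limit, since 5 autosomes had a higher ratio, up to 8.65 on chromosome 18, and its ratio was 1.13 times the pooled one with an interval, 0.975 to 1.31, that included 1. In the Romidepsin list 7.10% of the distal peaks passed this limit and 2.73% of those on the other autosomes, and in the abiraterone list 27.6% and 24.8%. The Romidepsin peaks of the distal segment were thus fewer, and a larger share of them passed the limit; their median fold over the control was 3.42, and 2.61 on the short arm and on the other autosomes. The abiraterone median fold was 2.79 in the distal segment and 2.83 on the other autosomes.

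Introns and intergenic regions carried the excess in number, and the smaller class of 3′ UTRs also had more abiraterone peaks. Promoters, exons, 5′ UTRs and downstream ends had fewer abiraterone than Romidepsin peaks, or nearly equal numbers. On chromosome 3, peaks within 3 kb of a start site numbered 407 and 420, a ratio of 0.969 (0.843 to 1.11). Intron peaks numbered 2652 and 2005, a ratio of 1.32 (1.25 to 1.40), and intergenic peaks 2696 and 1997, a ratio of 1.35 (1.27 to 1.43). Intergenic peaks less than 50 kb from a start site had a lower ratio, 1.11 (824 and 743 peaks). Peaks in 3′ UTRs numbered 82 and 62, a ratio of 1.32 with an interval, 0.939 to 1.87, that included 1. Exon peaks other than those of UTRs were fewer after abiraterone, 128 against 169, a ratio of 0.757, and so were 5′ UTR peaks, 15 against 28, and downstream peaks, 2 against 7. The ratio was highest 500 kb or more from any start site, 353 and 176 peaks, 2.01 (1.67 to 2.42). On the other autosomes the same classes, promoters, introns, intergenic regions, exons and the most distant peaks, had ratios of 0.626, 0.754, 0.736, 0.602 and 0.935. Set against the other autosomes, the ratio was raised 1.55 times at promoters, 1.75 times in introns, 1.83 times in intergenic regions and 1.26 times in exons. In 3′ UTRs, where the other autosomes had 0.617, it was raised 2.14 times. The ratio was 0.89 times theirs in 5′ UTRs and 0.52 times at downstream ends, which hold few peaks.

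In the distal segment, which was drawn by its ratio, every larger class held more abiraterone than Romidepsin peaks. This is a description and is not read as a result about the classes. Promoter peaks numbered 174 and 114 there, first introns 339 and 155, later introns 834 and 429, and the most distant intergenic class 131 and 40. On the short arm promoter peaks numbered 154 and 229 and exon peaks 45 and 88, while introns were even, 1034 and 1029.

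**Figure D4:**
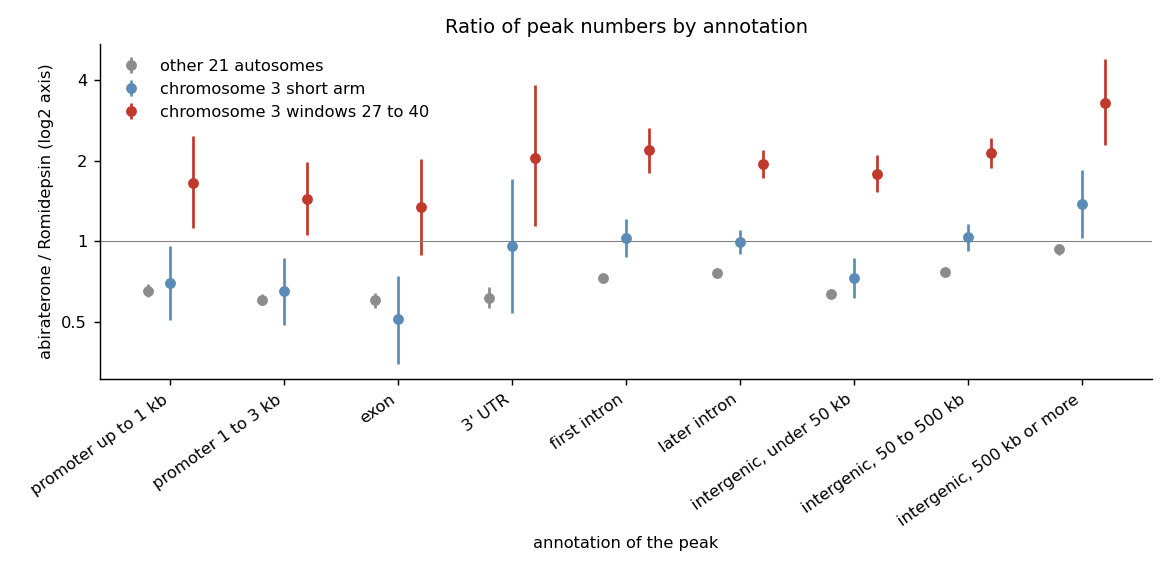
Ratio of abiraterone to Romidepsin peaks by annotation class on a log2 axis, for the other 21 autosomes (grey), the short arm (blue) and windows 27 to 40 of chromosome 3 (red), with exact 95% intervals for counting error. Every class plotted stands above 1 in windows 27 to 40, which were taken for their ratio. The classes there run from 1.34 in exons to 3.28 in intergenic regions 500 kb or more from a start site. The interval for exons reaches below 1.

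Genes were compared by the peaks labelled to their promoter, UTRs, exons, introns or downstream end, which gave 943 genes on chromosome 3. With at least 5 such peaks, 118 of 352 genes had at least 2 times as many abiraterone as Romidepsin peaks, where 15.9% of 4674 autosomal genes did. At least 2 times as many Romidepsin peaks were found for 72 genes, where 34.8% of autosomal genes had them. The genes of the distal segment made up most of the former, 71 of its 130 genes (54.6%), against 23 of 141 on the short arm (16.3%) and 23 of 78 between them (29.5%). Of the 72 genes with the reverse, 47 lay on the short arm and 7 in the distal segment. The distal segment was drawn by its ratio of peaks, so its share of either kind of gene is not read as a result.

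The excess was uneven between genes. The 12 genes with the largest excess together had 281 more abiraterone than Romidepsin peaks, 47.2% of the net excess of 595 over all genes of the chromosome. In the distal segment lay 10 of the 12, a place that goes with how the segment was drawn. All 12 are long, so that counts are also given per 100 kb. NAALADL2, a relative of prostate-specific membrane antigen, came first with 61 abiraterone and 10 Romidepsin peaks, 6.45 and 1.06 per 100 kb, and all but 2 of its abiraterone peaks were in introns. FGF12, an intracellular fibroblast growth factor that binds sodium channels, had 34 and 5 peaks, or 5.78 and 0.85 per 100 kb. LPP, a LIM protein of focal adhesions, had 45 and 17. FNDC3B, a membrane protein with fibronectin type III domains that is known from fat cell differentiation, had 26 abiraterone peaks and no Romidepsin peak, all in introns, which is 7.20 per 100 kb, the densest of the 12. NLGN1, a synaptic adhesion gene that lies between FNDC3B and NAALADL2, had 33 and 12.

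The other genes among the 12 had smaller differences. EGFEM1P, a pseudogene, had 22 and 4 peaks, and TPRG1, the neighbour of TP63, had 23 and 7. MECOM, a zinc finger transcription factor known from leukaemia, had 24 and 8. SOX2-OT, the long non-coding RNA that runs across SOX2, had 31 and 14, and the readthrough gene IQCJ-SCHIP1 had 30 and 14; their labels cannot be told apart from those of the genes they overlap. ROBO1 and ROBO2, receptors for the axon guidance protein Slit, were the members from the short arm, with 31 and 9 and with 41 and 20 peaks, and both lie in the window from 75 to 80 Mb, where the ratio was 1.89. Genes of at least 5 peaks without any in the Romidepsin list also included LRCH3 with 10, OPA1, a GTPase of mitochondrial fusion, with 6, and C3orf70 with 5 in the distal segment, and KCNH8, a potassium channel, with 7 and TOPAZ1 with 6 on the short arm; they were named after their values were seen.

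The 6 genes named for the largest deficit all lay on the short arm, as did PDZRN3, whose 5 and 13 peaks tie with the last of them, LRIG1. ATP2B2, a plasma membrane calcium pump, had 10 abiraterone and 30 Romidepsin peaks, 2.60 and 7.81 per 100 kb. CACNA2D3, an auxiliary subunit of calcium channels, had 15 and 31, and SRGAP3, a GTPase-activating protein of the Slit and Robo pathway, had 15 and 27. The integrin gene ITGA9 had 7 and 16 and the pseudokinase gene ULK4 had 12 and 21. LRIG1, a negative regulator of growth factor receptors, had 1 abiraterone peak and 9 Romidepsin peaks, 3 of them within 3 kb of its start site. Peak numbers of a single gene are small, and the intervals of the ratio included 1 for SRGAP3, ITGA9 and ULK4.

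**Figure D5:**
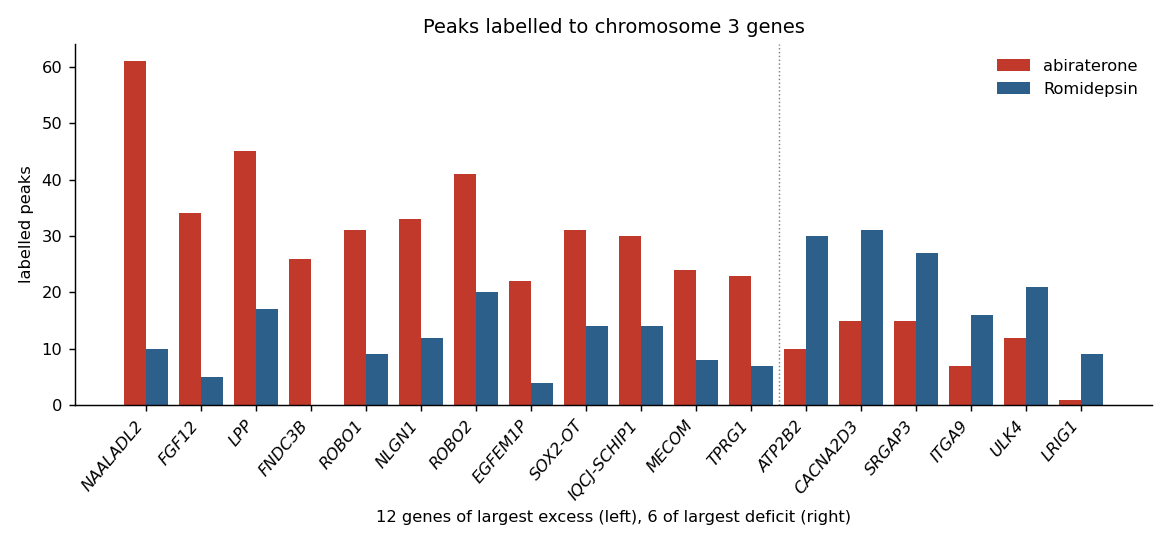
Peaks labelled to the 12 chromosome 3 genes with the largest excess of abiraterone over Romidepsin peaks (left) and the 6 with the largest deficit (right). Bars are counts in the abiraterone (red) and Romidepsin (blue) lists. NAALADL2 has 61 and 10 peaks and FNDC3B has 26 and 0, while ATP2B2 has 10 and 30.

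Lists of chromosome 3 genes by function or place are described by their counts, beside 438 genes with more abiraterone peaks, 396 with more Romidepsin peaks and 109 with equal numbers among all 943, with 3286 and 2691 peaks and a median difference of 0. FHIT, ROBO1, ROBO2, PBRM1, BAP1, SETD2, RYBP, TBL1XR1 and ZBTB20 each stand in 2 of the lists. Members named beyond the 4 with the most peaks in a list were picked after their values were seen. Of 27 cancer genes of the long arm, 25 had a labelled peak, with 155 abiraterone and 84 Romidepsin peaks; 12 had more abiraterone peaks, 8 had more Romidepsin peaks and the median difference was 0. Their excess rested on LPP, MECOM and 3 further genes: STAG1, a cohesin subunit, with 20 and 7, TP63, the p53 relative of basal epithelia, with 14 and 6, and TBL1XR1, a corepressor subunit, with 11 and 5. PIK3CA, the catalytic subunit of PI3-kinase, had 2 and 0. The label of SOX2, a stem cell transcription factor, was carried by 6 and 4 peaks, none of them in its promoter. Of these 6, 5 were labelled intron, although the gene spans 2.51 kb. They cannot be told apart from peaks of SOX2-OT, which runs across it, and are not read as peaks of SOX2 itself. Of 22 genes listed as tumour suppressors of the short arm 21 had a peak, 169 and 142 in all. The abiraterone count was higher for 8 genes and the Romidepsin count for 9, with a median difference of 0. The list also holds CTNNB1, the proto-oncogene of beta-catenin, with 2 and 3. FHIT, a fragile-site gene, had 38 in each list, the retinoic acid receptor RARB had 17 and 16, and FOXP1, a forkhead factor, had 16 and 16, so that the larger abiraterone total of this list came from ROBO1 and ROBO2. PBRM1, a subunit of the SWI/SNF remodelling complex, had 1 and 6.

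Of 17 genes of chromatin and histone acetylation, 14 had a peak, 57 and 43 in all, with a median difference of 1.5. At least 5 peaks were found for 6 of the 14, so the median rests on small counts. ZBTB20, a zinc finger repressor, had the most with 24 and 15. KAT2B, an acetyltransferase and the paralogue of KAT2A, had 4 and 2 peaks, HDAC11 had 1 and 0, YEATS2, a reader of histone acylation, had 3 and 1, and SMARCC1, another SWI/SNF subunit, had 1 and 8. Of 26 gene symbols listed under lipid, sterol or prostate biology, 21 had a peak, 131 and 68 in all. ACPP, counted as without a peak, is the former symbol of ACP3, which is counted with one. More abiraterone peaks were found for 14, more Romidepsin peaks for 5, and the median difference was 2. After FNDC3B, examples were GBE1, the glycogen branching enzyme, with 22 and 14, OSBPL10, an oxysterol-binding protein, with 12 and 5, PLD1, phospholipase D1, with 11 and 7, SUCLG2, a subunit of succinyl-CoA ligase, with 16 and 10, and PPARG, a nuclear receptor of fat cells, with 5 and 1. FNDC3B, GBE1 and SUCLG2 gave the most abiraterone peaks of these genes, and GBE1 and SUCLG2 are enzymes outside the theme. The totals are therefore not read as a result about lipid, sterol or prostate genes. PLCL2, a phospholipase-like protein, had 10 in each list. ACP3, prostatic acid phosphatase, had 2 and 1. All 32 long neuronal and cell adhesion genes had a peak, 734 and 486 in all, with 22 higher in the abiraterone list, 6 in the Romidepsin list and a median difference of 7.5. These genes are long and all 32 had at least 5 peaks, so larger differences in count go with their size. At least 2 times as many abiraterone peaks were found for 11 of them and the reverse for 2. Among the 352 chromosome 3 genes with at least 5 peaks these numbers were 118 and 72. The excess was not shared by EPHB1, an ephrin receptor, with 28 and 30, or by CPNE4 with 15 and 16, both inside the distal segment.

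The 5 peaks with the highest fold in each list are described by their place, and are too few to be set against the excess. Of all peaks of the chromosome, 45.8% in the abiraterone and 29.7% in the Romidepsin list lay in the distal segment. The abiraterone peak with the highest fold lay in an intron of ZNF385D on the short arm, chr3:22205495-22205737 (hg19), with a fold over the control of 13.98. The next lay in the biotinidase gene BTD, near VWA5B2, in ERC2, a scaffold of the presynaptic active zone, and 886 kb from the start of ROBO1, with folds of 8.92 to 8.504, and 1 of the 5 was in the distal segment. In the Romidepsin list the highest fold, 10.5, was found at chr3:181570625-181570807, 141 kb from the start of SOX2. Of the 5 highest Romidepsin peaks 4 lay in the distal segment. The others there were next to MRPS22 and MECOM and, between genes, 77.5 kb from the start of P2RY1, a receptor for ADP. The one outside was in SLC6A20, a transporter of proline. Folds were not compared between the lists.

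Peaks of the 2 lists seldom fell on the same place. On chromosome 3, 186 abiraterone peaks (3.11%) shared at least 1 base pair with a Romidepsin peak, and 4.16% did on the other autosomes. Of those autosomes, 18 had a higher share. Romidepsin peaks covered 0.843% of chromosome 3 and 1.22% of the other autosomes, so the lower share went with a lower coverage. Both shares were above the coverage, which leaves out the width of the abiraterone peaks and so understates the overlap from placement alone. Seen from the Romidepsin list, 184 peaks (3.92%) were overlapped, and 2.92% on the other autosomes, with 1 of them higher. In the distal segment the shares were 3.25% of abiraterone and 6.38% of Romidepsin peaks, in a segment where abiraterone peaks were also denser. BDH1, a ketone body dehydrogenase, and the adhesion gene CNTN4 had 3 overlapped abiraterone peaks each. Of the overlaps, 3 had a −log10 q of at least 2 in both lists, near or in KALRN, TSC22D2 and LINC02877.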

How the data were processed

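C4-2B H2A-K130ac ChIP-seq was taken as 1 list of narrow peaks per treatment. The lists are named for input as control, whereas the study's reporting summary gives broad peaks, the vehicle-treated sample as control and duplicates, so which control stands behind a fold, and whether duplicates were pooled, is not settled. The authors made the lists: reads were aligned with Bowtie and peaks called with MACS (MACS2 in the labels; versions not given in the sources used here). The deposited score of each peak, its fold (a ratio over the control), and its −log10 p-value and −log10 q-value are the authors' own, used to describe or filter peaks within a list. Read counts are absent from the lists, and the depth behind a peak is unknown. The labels name hg38, but the last peak of chromosome 1 ends at 249191832, beyond the last gene there in GRCh38.p14 (248937099), and 0 of 905 chromosome 3 gene starts match that build, so coordinates were taken as hg19.

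Peaks were counted by start in 5 Mb windows, keeping windows of at least 20 peaks, and genes by the authors' labels, with at least 5 peaks for a comparison. Intervals are exact (Clopper-Pearson) 95% binomial intervals of the abiraterone share written as a ratio; they cover counting error only. No test between treatments was made. Overlaps were counted with bedtools 2.31.1 (at least 1 shared base pair); Python 3.11.15, pandas 2.3.3, scipy 1.17.1 and matplotlib 3.10.9 were used, and the counting of windows and intervals was tested on simulated data. Of 943 gene identifiers on chromosome 3, 941 matched RefSeq. Promoters (GRCh38.p14) were shown where the shift of the start site between the builds was within 100 bases of the median of 30 neighbouring genes; no coordinate was converted. No genome sequence of hg19 was used here, so no peak sequence is shown.

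The members and gene lists were chosen with earlier results of these data known. Genes named were the 12 with the largest and the 6 with the most negative difference in labelled peaks, the members of the 5 gene lists with the most peaks, and the genes at the 5 peaks of highest fold per list. The alternatives tried were a minimum −log10 q of 2, covered base pairs, the 20000 peaks of highest −log10 p, other window sizes, labels and overlaps.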

Additional observations from a re-analysis of the deposited data

How the results depend on the processing

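Of 39 alternatives to 12 results, 20 left the value within its counting interval or, for counts, within 1.5 times, 16 moved it and 3 turned it across 1; the cause was not tested. With a −log10 q of at least 2, where the abiraterone list keeps far more peaks in the whole genome, the chromosome 3 ratio was 7.44, that of the long arm 6.81, of introns 6.70 and of intergenic peaks 8.51, while the short arm (9.09) and promoters (5.47) turned from below to above 1. Relative to the other autosomes the same limit left 1.13 (0.975 to 1.31) for chromosome 3 and 1.16 (0.938 to 1.44) for the distal segment, and both intervals include 1. With the 20000 peaks of highest −log10 p in each list the short arm turned to 1.03, the long arm moved to 1.45, and the ratios relative to the other autosomes were 1.31 for chromosome 3 and 1.75 for the distal segment. Covered base pairs gave 1.89 and 2.93. The alternatives for the distal segment and the limits on −log10 p were chosen after seeing the data. Without the 3 windows of most abiraterone peaks the chromosome 3 ratio was 1.22. The number of genes with an abiraterone count at least 2 times the Romidepsin count was 197 with all nearest peaks and 49 with at least 10 peaks per gene. After dividing by the list totals it was 157. How many genes were compared under these alternatives is not given here, so the counts cannot be read as shares. The overlapped share of abiraterone peaks was 0.970% when 50% of both peaks had to be shared and 0.195% at the q limit. The longest row of windows spanned 64 to 75 Mb under the other window sizes. No paired analysis was possible because there is 1 peak list for each treatment, and the spread between cultures is unknown.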
